A study of Mus musculus with 12 samples.

Results

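Laminin chain genes were examined in RNA-seq of mouse intestine: *Lama1*, *Lama2*, *Lama3*, *Lama4*, *Lama5*, *Lamb1*, *Lamb2*, *Lamb3* and *Lamc1*, which are 9 of the 54532 genes with values in each table. The family was selected on measured values, because *Lama5* was lower in the knockouts of both tissues. Differences between genotypes in these 9 genes are therefore given as descriptions, without a test. The 12 libraries form 4 groups of 3, all from adult mice with no treatment. Small intestine crypts came from Wild type (WT) mice and from ieCtnnb1KO mice, which lack ieCtnnb1, an intestinal enhancer upstream of *Ctnnb1*, the gene of β-catenin. Colon tumors came from APCmin/+ mice and from APCmin/+;ieCtnnb1KO mice. Both tumor groups carry the Min allele of *Apc*, a heterozygous nonsense mutation, and the titles of the APCmin/+ tumors call them WT, a name kept here for the crypt group. In each tissue the comparison asks what changes when the enhancer is lost.

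The enhancer was deleted by CRISPR/Cas9 in mice of C57BL/6 background, and the knockout is homozygous and not limited to the epithelium. Crypts were released with EDTA and passed through a cell filter to hold back villi, while tumors were taken as tissue, with their stroma, vessels and immune cells. In such bulk samples, fewer cells of a type and less RNA per cell cannot be told apart. The study counts mice and calls its replicates biological, while the labels do not tie a library to an animal.

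Laminins are large glycoproteins that assemble into a network on the surface of cells and found the basement membrane. Each is a trimer of an α, a β and a γ chain, and the end of the α chain is bound by integrins, dystroglycan and the Lutheran glycoprotein. In the intestine the epithelium makes the α5 chain, which lies under crypts and villi, and the α3 and β3 chains, which take part in the trimer of hemidesmosomes. Chains α2 and α4 are made mainly by stromal cells, with α4 typical of vessels, and β1, β2 and γ1 are partners that both compartments make. On this background *Lama3*, *Lama5* and *Lamb3* were treated as epithelial chains, *Lama2* and *Lama4* as stromal chains, and *Lama1*, *Lamb1*, *Lamb2* and *Lamc1* as other chains.

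Levels are FPKM as the authors deposited them, that is, fragments relative to gene length and to the depth of the library. They rest on 14457896 to 16156712 fragments on genes in each library. The target gene was read first. *Ctnnb1* had FPKM of 121, 134 and 123 in WT crypts and 102, 104 and 105 in ieCtnnb1KO crypts. In tumors it had 299, 363 and 358 in APCmin/+ and 279, 248 and 250 in APCmin/+;ieCtnnb1KO. Every knockout library was below every control library of its tissue. The deleted enhancer lies outside the measured transcript. The difference on the log2(FPKM + 0.5) scale was -0.28 (SE 0.118, limma adjusted p = 0.849) in crypts and -0.39 (SE 0.128, limma adjusted p = 0.303) in tumors. No gene reached an adjusted p of 0.05 in limma: 0 of 14176 genes tested in crypts (0.0%) and 0 of 16743 in tumors (0.0%), and voom in limma on recovered fragments also gave 0 in each. At an unadjusted p under 0.05 limma had 829 crypt genes (5.85%), 494 higher and 335 lower in knockouts, and 2421 tumor genes (14.5%), 1417 higher and 1004 lower. That split depends on scaling: with libraries rescaled to the same total without the 50 highest genes it was 314 higher and 474 lower in crypts, and 1072 higher and 1353 lower in tumors. With the same total of all fragments it was 472 and 289 in crypts and 1075 and 1344 in tumors, and with quantile normalization 370 and 331 in crypts and 1109 and 1286 in tumors.

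Several libraries stand apart from their group. The first and second WT crypt libraries hold stomach transcripts, with *Gkn1* at 7.08 and 8.27 FPKM against 0 in the other 4 crypt libraries, and *Pgc* at 17.5 and 13.8 against 1.74 to 2.24. The remaining WT crypt library, WT 3, was highest for *Lama3*, *Lama5* and *Lamb3* and for the absorptive cell genes *Krt20* and *Vil1*. In tumors, replicate 3 of each genotype expressed *Xist*, the RNA of the silenced X chromosome, at 114 and 61.4 FPKM, with 0 and 0.0247 FPKM of the Y-linked *Ddx3y*. The other 10 libraries had *Ddx3y* between 8.32 and 12.9 FPKM. Each tumor genotype thus holds 1 such library.

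In crypts the laminin transcripts are scarce and mostly those of epithelial chains. The mean over the 6 crypt libraries was 4.52 FPKM for *Lamb3*, 2.37 for *Lama5*, 1.45 for *Lamc1*, 1.44 for *Lama3*, 0.890 for *Lamb2* and 0.791 for *Lamb1*. *Lama4* followed with 0.139 FPKM, and *Lama2* and *Lama1* were close to nothing. *Lama1*, a chain best known from embryonic tissue, was listed at 0 in 5 of 6 crypt libraries and at 2 fragments (0.0133 FPKM) in WT 1. A count of 0 there allows up to 0.0221 FPKM, taken as 3 fragments in the library with the coarsest step. *Lama2*, the chain of muscle and of mesenchyme, had between 0 and 4 fragments in a crypt library, so that no order of *Lama1* and *Lama2* can be read at this depth. Of the 9 genes, 6 had a mean of at least 0.5 FPKM in crypts and entered the fit, and each of these 6 was above 0.5 FPKM on average in either genotype. Intervals and floors given here cover counting error only.

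The tumors hold laminin transcripts of all 9 genes. *Lama5* led with a mean of 68.5 FPKM over the 6 tumor libraries, then *Lamb3* with 55.6, *Lamc1* with 28.0, *Lama3* with 24.1, *Lamb2* with 23.4 and *Lamb1* with 20.4. The low end was *Lama1* with 5.55 FPKM, *Lama4* with 4.31 and *Lama2* with 0.741. The sum over the 9 genes was between 7.61 and 21.7 FPKM in a crypt library and between 215 and 241 in a tumor library. The tables were normalized separately, so this contrast of tissues was not tested. The tissues also differ in *Apc* genotype, in being tumor or not, in gut segment and in dissection. *Xist* libraries occur only among the tumors.

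Neighbours in the order of levels were compared within each table by an exact two-sided sign-flip permutation test over the 6 libraries. Benjamini-Hochberg adjustment covered 16 pairs. The order was taken from the means of these same libraries, so the pairs and their directions are not independent of the values tested. Libraries of both genotypes were pooled, so pairs with *Lama5* also carry the difference by which the family was chosen. In crypts *Lamb3* exceeded *Lama5* by 0.75 (SD 0.279, log2 difference of levels) and *Lama5* exceeded *Lamc1* by 0.47 (SD 0.423), each in 6 of 6 libraries. *Lamb1* exceeded *Lama4* by 0.98 (SD 0.375) and *Lama4* exceeded *Lama2* by 0.34 (SD 0.0907), also in 6 of 6. The pseudocount sets the size of these differences among low genes: with 0.1 they were 1.84 and 1.18, and with 1 they were 0.64 and 0.18. In tumors the same held for *Lamb3* over *Lamc1* (0.97, SD 0.211), *Lamb1* over *Lama1* (1.83, SD 0.296) and *Lama4* over *Lama2* (1.97, SD 0.277). These 7 pairs had p = 0.03125, the smallest that the exact test can give with 6 libraries, and an adjusted p of 0.0714. The other 9 pairs did not keep a single order. Among *Lamc1*, *Lama3*, *Lamb2* and *Lamb1* in crypts, neighbours lay within their spread of each other (exact p from 0.40625 to 0.5625). In tumors *Lama5* was above *Lamb3* in 5 of 6 libraries by 0.30 (SD 0.335, exact p = 0.125, adjusted 0.200).

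**Figure D1:**
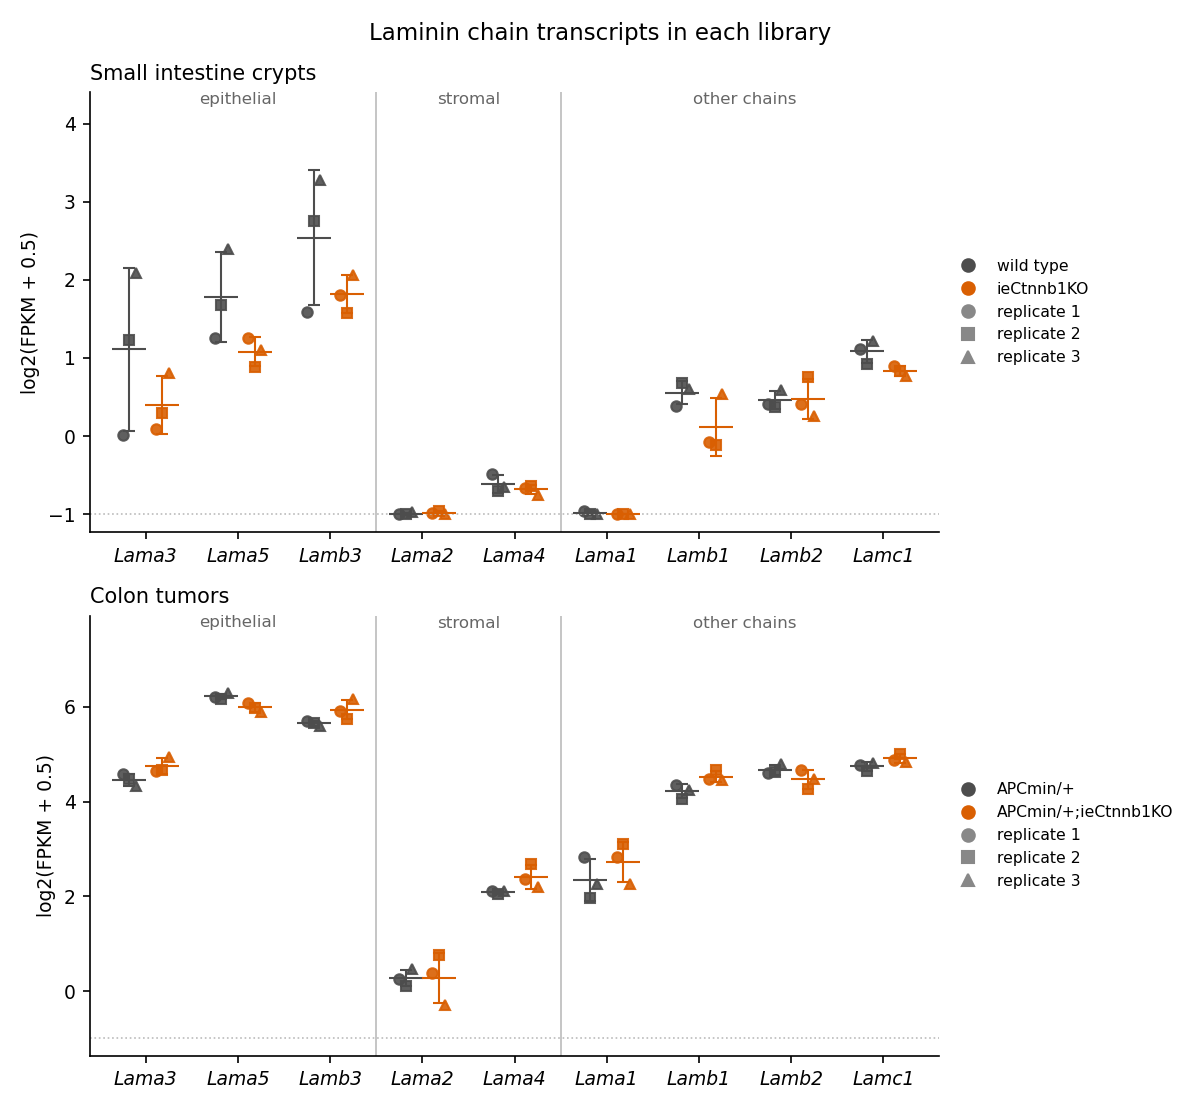
Level of each laminin chain gene as log2(FPKM + 0.5) in crypts (top) and colon tumors (bottom). Each point is a library, with color for genotype and shape for replicate number, the horizontal bar is the group mean, the whisker is 1 SD over 3 libraries, and the dotted line is the value at 0 FPKM. The epithelial chains of crypts are spread widely in WT, while *Lama2*, *Lama4* and *Lama1* lie near the floor there.

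Among epithelial chains, *Lama5* encodes the α5 chain and gave the family its place here. The gene (ENSMUSG00000015647) lies on the reverse strand of chromosome 2, from 180176373 to 180225859 in GRCm38. *Lamb3* (ENSMUSG00000026639), which encodes the β3 chain, lies on the forward strand of chromosome 1 from 193207699 to 193343878. Since the mean of *Lama5* was lower in the knockouts of both tissues and that of *Lamb3* was lower in crypts and higher in tumors, 250 bases before a RefSeq start of each (GRCm38.p6) are shown for comparison. For *Lamb3*, the first of 2 listed starts is used. Capitals mark the letters GGGCGG (the core of Sp1 sites) and TGACG (a part of the CREB site), on either strand.

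*Lama5*, chr2:180225860-180226109, reverse strand: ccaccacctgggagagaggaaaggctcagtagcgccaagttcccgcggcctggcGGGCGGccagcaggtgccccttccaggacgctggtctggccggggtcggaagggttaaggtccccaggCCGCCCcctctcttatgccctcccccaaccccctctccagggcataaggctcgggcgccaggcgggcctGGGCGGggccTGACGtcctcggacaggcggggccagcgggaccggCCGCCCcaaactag

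*Lamb3*, chr1:193301744-193301993, forward strand: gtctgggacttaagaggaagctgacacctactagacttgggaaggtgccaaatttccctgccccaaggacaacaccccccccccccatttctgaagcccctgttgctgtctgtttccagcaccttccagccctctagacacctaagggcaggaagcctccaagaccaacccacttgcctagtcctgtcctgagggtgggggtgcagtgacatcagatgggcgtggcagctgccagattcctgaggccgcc

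The *Lama5* window begins at the first base outside the gene and holds 4 matches to GGGCGG and 1 to TGACG, with 72.4% G and C and 19 CpG. The *Lamb3* window lies inside the span of the gene, since the annotated gene starts further upstream, and holds none of these letters, with 58.8% G and C and 2 CpG. CTTTGA, the core of TCF/LEF sites, and TGANTCA, the AP-1 site, were searched on both strands too and were absent from these windows. None of these motifs contains another. Over 32851 windows of the same length, 32.7% held GGGCGG, 17.8% held TGACG, 13.8% held CTTTGA and 6.75% held TGANTCA, and the median content of G and C was 52.4%. RefSeq entries were matched by symbol for 5 of the 9 genes. The window of *Lamb1*, on average lower in crypts and higher in tumors like *Lamb3*, held 2 matches to GGGCGG. That of *Lamb2*, on average lower in tumors like *Lama5*, held 0 matches to any of these motifs. The *Lama2* window held 1 match to CTTTGA. A relation of these letters to the differences between genotypes was not tested. A match describes letters, and its absence says only that the letters are not in this window.

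The epithelial chains were lower on average in ieCtnnb1KO crypts, with a wide spread among WT libraries. *Lama5* had FPKM of 1.89, 2.70 and 4.76 in WT crypts and 1.88, 1.34 and 1.65 in ieCtnnb1KO crypts. The genotypes did not overlap, but the lowest WT library, WT 1, and the highest knockout library were nearly the same, with 95% exact Poisson intervals of 1.69 to 2.10 and 1.69 to 2.09 FPKM from 333 and 349 fragments. That gap was not detectable at this depth. The mean was 3.11 ± 1.48 FPKM (SD, n = 3) in WT and 1.62 ± 0.271 in ieCtnnb1KO, a log2 difference of -0.70 (SE 0.291). Without WT 3 the log2 difference of *Lama5* was -0.39, and without WT 1 it was -0.96.

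*Lama3* encodes the α3 chain of hemidesmosomes and lies on chromosome 18. It had 0.511, 1.84 and 3.75 FPKM in WT crypts and 0.560, 0.728 and 1.25 in ieCtnnb1KO crypts. The lowest of all 6 libraries was WT 1 and the highest were WT 3 and WT 2, so the knockout lay inside the range of WT. *Lamb3*, its partner, had 2.50, 6.25 and 9.19 FPKM in WT and 2.99, 2.49 and 3.68 in ieCtnnb1KO. The pattern was alike: WT 1 sat among the knockouts, and WT 2 and WT 3 lay above them. The log2 differences were -0.71 (SE 0.505) for *Lama3* and -0.72 (SE 0.406) for *Lamb3*. Without WT 3 they were -0.23 and -0.35, and without WT 1 they were -1.26 and -1.20.

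A pair of genes of mature absorptive cells, picked from the epithelial markers after their values were seen, was set beside these chains. *Krt20*, a keratin of the villus and surface epithelium, had 339, 550 and 713 FPKM in WT and 405, 428 and 644 in ieCtnnb1KO crypts. *Vil1*, which builds microvilli, had 358, 479 and 718 in WT and 485, 426 and 556 in ieCtnnb1KO. WT 1 was lowest and WT 3 highest for both, as for *Lama3*, and the genotypes overlapped for both. *Lama5* differed in that WT 1 ranked above all knockouts, within counting error of knockout 1, and *Krt8*, the most abundant marker, was highest in knockout 2 (1917 FPKM, against 1666 in WT 3). The highest crypt library was also a knockout for *Krt19* (1227 FPKM, against up to 767 in WT) and *Cldn7*. For *Epcam*, *Cdh1* and *Krt18* it was a WT library. The 8 epithelial markers summed to 4312, 5090 and 5385 FPKM in WT and 4713, 5660 and 5159 in ieCtnnb1KO, led by *Krt8*, and 4 of 8 were higher and 4 lower in the knockout, or 2 and 6 with the total taken without the 50 highest genes. The part of cell composition in the *Lama3*, *Lama5* and *Lamb3* values was not tested.

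**Figure D2:**
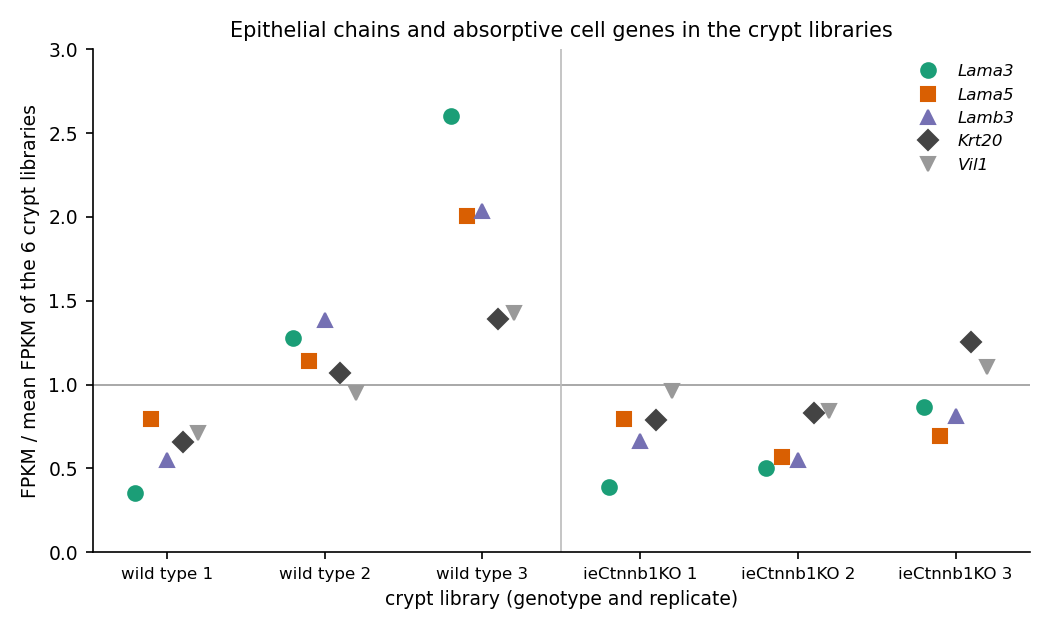
Level of *Lama3*, *Lama5*, *Lamb3*, *Krt20* and *Vil1* in each crypt library, as FPKM divided by the mean FPKM of the 6 crypt libraries. WT 3 is highest for all 5 genes (2.60 for *Lama3*, 2.01 for *Lama5*, 2.03 for *Lamb3*), and WT 1 lies at 0.355 for *Lama3*, below every ieCtnnb1KO library. *Krt20* and *Vil1* were picked from the epithelial markers after their values were seen. Other markers on that list, not drawn, peaked in a knockout (*Krt8*, *Krt19*, *Cldn7*) or in WT (*Epcam*, *Cdh1*, *Krt18*).

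The stromal chains were barely present in crypts. *Lama4*, the α4 chain of vessels, had 0.214, 0.114 and 0.137 FPKM in WT crypts and 0.132, 0.143 and 0.0944 in ieCtnnb1KO crypts, from 16 to 40 fragments. The genotypes overlapped, and the intervals of WT 1 (0.153 to 0.292) and of the lowest knockout library (0.0540 to 0.153) only just met. *Lama2* was listed at 0 in 3 of 6 crypt libraries. Markers of the cells that would bring these chains were low as well. The 8 fibroblast markers summed to 6.97, 4.66 and 6.16 FPKM in WT and 2.30, 5.67 and 3.12 in ieCtnnb1KO, led by *Dcn*, with *Lum* at 0 in knockout libraries 1 and 3 and *Pdgfra* at 0 in knockout 3. The 6 endothelial markers summed to between 0.699 and 1.05 FPKM, led by *Pecam1*, with *Cdh5* at 0 in 4 of 6 libraries, and the 6 smooth muscle markers to between 0.375 and 0.923, led by *Tagln*, with *Cnn1* at 0 in 4 of 6. *Sox10*, a marker of glia, was at 0 in 6 of 6. Immune cells were present: 5 markers summed to 30.9, 30.6 and 33.5 FPKM in WT and 27.0, 31.9 and 23.8 in ieCtnnb1KO, led on average by *Lyz2*. In ieCtnnb1KO crypts 3 of 3 fibroblast markers fitted were lower, with a median log2 difference of -0.54, and 4 of 5 immune markers, with -0.27, beside -0.57 for the laminin genes. In each of these marker lists 1 gene was lower without overlap, beside 5.15% of all genes. *Col3a1* (means of 0.746 FPKM in WT and 0.361 in ieCtnnb1KO) and *Col6a1* (0.702 and 0.382) reached the cut of 0.5 FPKM through WT alone. That favours lower values in the knockout, so nothing is read from the fibroblast count, median or lack of overlap.

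Among other chains in crypts, *Lamc1* encodes γ1, the partner of most α chains. It had 1.66, 1.39 and 1.83 FPKM in WT and 1.36, 1.28 and 1.20 in ieCtnnb1KO crypts. Every knockout library was below every WT library, by a margin within counting error for the closest (WT 2, 1.19 to 1.61, and knockout 1, 1.17 to 1.57), and the log2 difference was -0.25 (SE 0.157). *Lamb1*, the β1 chain, had 0.808, 1.09 and 1.02 FPKM in WT and 0.446, 0.427 and 0.955 in ieCtnnb1KO. Knockout libraries 1 and 2 were low and knockout 3 was within the WT range, with a log2 difference of -0.44 (SE 0.246). *Lamb2*, the β2 chain, had 0.828, 0.796 and 1.01 FPKM in WT and 0.828, 1.19 and 0.691 in ieCtnnb1KO. The genotypes overlapped fully for *Lamb2*, and its log2 difference of 0.01 (SE 0.207) turned negative with the total taken without the 50 highest genes.

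Read together, 2 of the 6 laminin genes fitted in crypts, *Lama5* and *Lamc1*, had all knockout libraries below all WT libraries, beside 730 of 14176 genes (5.15%), and 0 of 6 had them above, beside 963 genes (6.79%). The gene family was chosen by this contrast, so nothing is read from these counts. The median log2 difference of the 6 was -0.57, beside 0.01 over all genes tested.

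In colon tumors *Lama5* was lower and its epithelial and stromal relatives were mostly higher in APCmin/+;ieCtnnb1KO. *Lama5* had 73.5, 71.2 and 77.4 FPKM in APCmin/+ tumors and 67.3, 62.4 and 59.3 in APCmin/+;ieCtnnb1KO tumors, from 10527 to 13555 fragments. The genotypes did not overlap, and the interval of the lowest control library (70.0 to 72.4 FPKM) lay above that of the highest knockout library (66.1 to 68.5). The mean was 74.0 ± 3.11 FPKM (SD, n = 3) against 63.0 ± 4.05, a log2 difference of -0.23 (SE 0.0866). With quantile normalization it was -0.39, and without the *Xist* libraries of both genotypes it was -0.16.

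The other epithelial chains went the opposite way. *Lama3* had 23.3, 21.7 and 19.5 FPKM in APCmin/+ and 24.7, 25.0 and 30.3 in APCmin/+;ieCtnnb1KO. Every knockout tumor was above every control tumor, with the highest and the lowest value in the *Xist* libraries, and the log2 difference was 0.30 (SE 0.115). *Lamb3* had between 48.1 and 51.6 FPKM in APCmin/+ and 60.1, 53.1 and 70.9 in APCmin/+;ieCtnnb1KO. The order was the same, again with the extremes in replicate 3 of either genotype, and the log2 difference was 0.29 (SE 0.118). Without replicate 3 of both genotypes, the log2 differences were 0.14 for *Lama3* and 0.15 for *Lamb3*. With quantile normalization that of *Lamb3* was 0.17.

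Shares within the α chains were computed for each library. *Lama5* made up 68.1%, 70.8% and 73.1% of the summed α-chain FPKM in APCmin/+ tumors and 64.7%, 60.9% and 60.3% in APCmin/+;ieCtnnb1KO tumors. The share was lower in every knockout tumor than in any control tumor, with means of 70.7 ± 2.50% and 62.0 ± 2.40% (SD, n = 3). The share of *Lama3* was 20.5 ± 1.83% and 26.3 ± 3.96%. The sum of the α chains itself was 105 ± 3.86 FPKM in controls and 102 ± 2.95 in knockouts, which overlap. In crypts the *Lama5* share overlapped between genotypes, with 71.9%, 58.0% and 55.0% in WT and 73.0%, 60.2% and 55.1% in ieCtnnb1KO. The α-chain sum there was 2.63, 4.66 and 8.65 FPKM in WT and 2.58 and 2.23 in ieCtnnb1KO libraries 1 and 2. The genotypes overlap, since knockout 3 lay between WT 1 and WT 2.

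**Figure D3:**
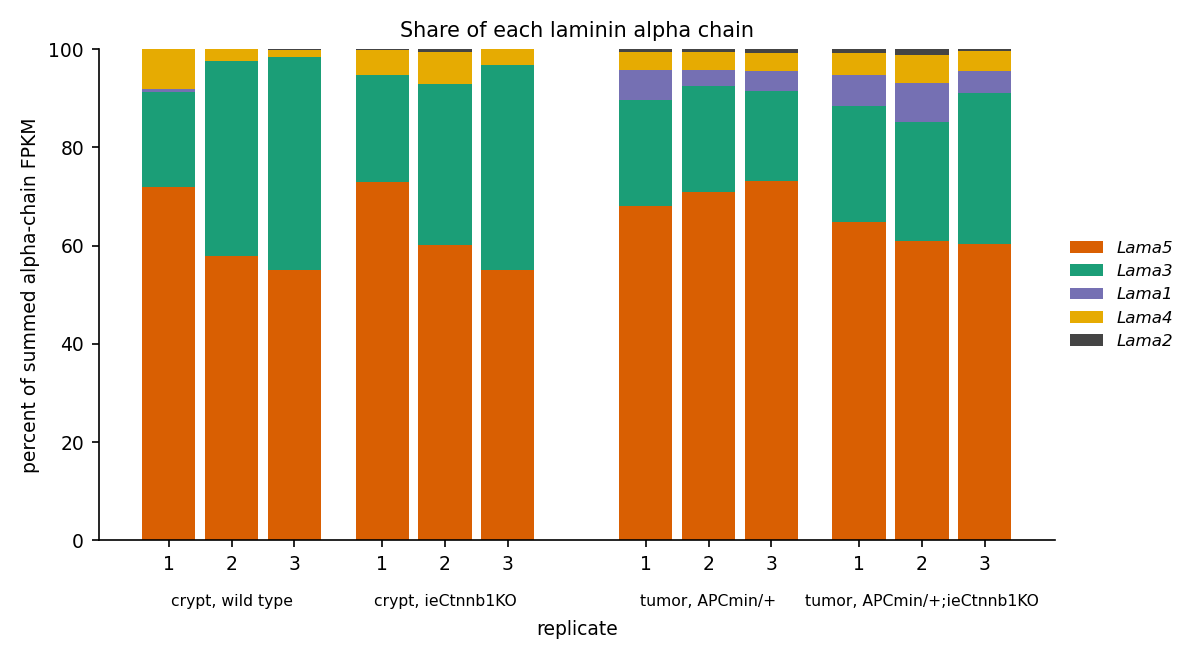
Share of each α-chain gene in the summed α-chain FPKM of a library, in percent, with 1 bar per library (number under the bar: replicate). *Lama5* takes 68.1% to 73.1% in APCmin/+ tumors and 60.3% to 64.7% in APCmin/+;ieCtnnb1KO tumors, and between 55.0% and 73.0% in crypts of either genotype.

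The stromal chains did not move as a pair in tumors. *Lama4* had 3.84, 3.62 and 3.85 FPKM in APCmin/+ and 4.63, 5.87 and 4.05 in APCmin/+;ieCtnnb1KO. Every knockout tumor was above the controls, though knockout 3 by little, with intervals of 3.57 to 4.15 FPKM in the highest control and 3.77 to 4.35 in that knockout, and the log2 difference was 0.31 (SE 0.145). It was 0.18 without the second knockout library. *Lama2* had 0.684, 0.582 and 0.880 FPKM in APCmin/+ and 0.803, 1.19 and 0.310 in APCmin/+;ieCtnnb1KO. The highest and the lowest *Lama2* values were both in the knockout, and the log2 difference of 0.00 (SE 0.302) changed sign with libraries rescaled to the same total. It was -0.24 without the second knockout library and 0.29 without the third.

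Among other chains in tumors, *Lamb1* had 19.9, 16.2 and 18.5 FPKM in APCmin/+ and 21.6, 24.8 and 21.5 in APCmin/+;ieCtnnb1KO, with a log2 difference of 0.31 (SE 0.107). *Lamc1* had 26.9, 24.4 and 27.8 FPKM in APCmin/+ and 29.1, 31.8 and 28.1 in APCmin/+;ieCtnnb1KO, with a log2 difference of 0.17 (SE 0.0897). For both genes every knockout tumor was above every control tumor, although for *Lamc1* the nearest libraries differed by less than their counting intervals (26.9 to 28.8 and 27.2 to 29.0), and its log2 difference was 0.06 with quantile normalization. *Lamb2* had 23.7, 24.2 and 27.2 FPKM in APCmin/+ and 24.8, 18.6 and 21.9 in APCmin/+;ieCtnnb1KO. The genotypes overlapped through the first knockout library, and the log2 difference was -0.20 (SE 0.123), or -0.10 without the second knockout library. *Lama1* ranged from 3.40 to 6.64 FPKM in APCmin/+ and from 4.31 to 8.05 in APCmin/+;ieCtnnb1KO, which overlap, with a log2 difference of 0.38 (SE 0.288), or 0.18 without the second control library and 0.62 without the first.

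All 9 laminin genes were fitted in tumors. Of these, 1 had all knockout libraries below all controls (*Lama5*), beside 1781 of 16743 genes (10.6%), and 5 had them above (*Lama3*, *Lama4*, *Lamb1*, *Lamb3* and *Lamc1*), beside 1912 genes (11.4%). Since this contrast also entered the choice, nothing is read from the counts. The median log2 difference of the 9 was 0.29, beside 0.01 over all genes tested. With quantile normalization it was 0.17, beside -0.02 over all genes.

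**Figure D4:**
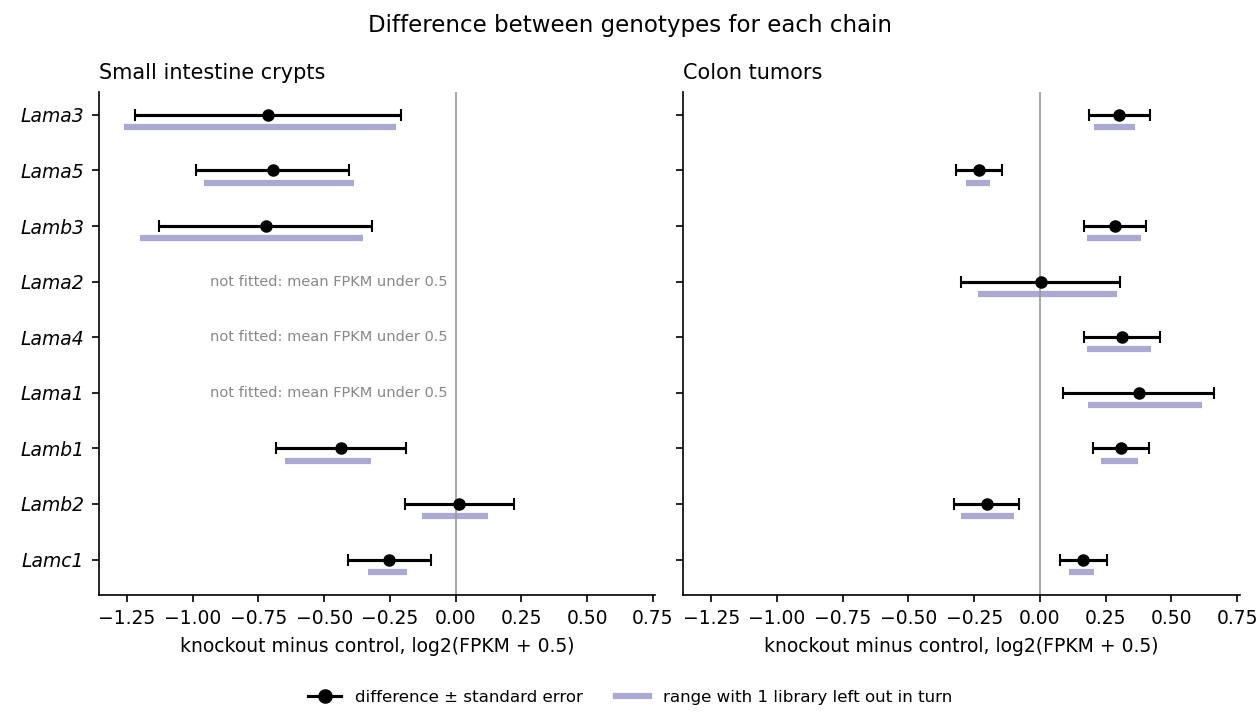
Difference between genotypes (knockout minus control) in log2(FPKM + 0.5) for each chain in crypts (left) and tumors (right). Points and whiskers are the limma difference and its standard error, and violet bars run from the lowest to the highest value when each library is left out in turn. *Lama5* is below 0 in both tissues (-0.70 and -0.23), whereas *Lama3* and *Lamb3* are below 0 in crypts and above 0 in tumors, in crypts with bars that reach from -1.26 to -0.23 for *Lama3*. These signs were the same under each scaling tried.

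Set against each other, the mean log2(FPKM + 0.5) of the epithelial chains minus that of the stromal chains was 1.70, 2.74 and 3.40 in WT crypts and 1.87 and 1.72 in ieCtnnb1KO libraries 1 and 2, with knockout 3 the highest of its group and below WT 2. It was 4.31, 4.35 and 4.11 in APCmin/+ tumors and 4.18, 3.75 and 4.73 in APCmin/+;ieCtnnb1KO tumors. The genotypes overlapped in both tissues. In crypts the stromal term sits near the value given by the pseudocount, so this difference mostly follows the epithelial chains there. It differed by -0.68 between genotypes in crypts (-0.29 without WT 3 and -1.14 without WT 1) and by -0.04 in tumors, where leaving out a library moved it between -0.29 and 0.20.

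Markers of several compartments were higher in the knockout tumors along with these chains. The 8 epithelial markers summed to 4425, 4446 and 3885 FPKM in APCmin/+ and 5220, 5070 and 5403 in APCmin/+;ieCtnnb1KO, led by *Krt8*, with 8 of 8 higher and without overlap, beside 11.4% of all genes, or 6 of 8 higher with quantile normalization. The 8 fibroblast markers summed to 400, 258 and 252 FPKM in APCmin/+ and 406, 529 and 426 in APCmin/+;ieCtnnb1KO, led on average by *Col1a1*. Of these, 8 of 8 were higher under every scaling and 4 of 8 without overlap, beside the same 11.4%. Per 100 FPKM of *Epcam*, *Lama5* had 9.67 ± 1.25 FPKM in controls and 7.37 ± 0.664 in knockouts (SD, n = 3), a ratio that carries the difference by which the family was chosen. The 6 endothelial markers summed to between 28.4 and 33.8 FPKM in APCmin/+ and between 35.1 and 36.7 in APCmin/+;ieCtnnb1KO, led by *Cdh5*, with 5 of 6 higher. Smooth muscle markers summed to between 129 and 169 FPKM and between 152 and 180, led by *Acta2* (3 of 6 higher), and immune markers to between 264 and 460 and between 270 and 509, led by *Lyz2* (2 of 4 tested higher). *Tagln*, counted among the higher smooth muscle markers, had means of 0.464 and 0.654 FPKM. It reached the cut of 0.5 FPKM through the knockout alone, which favours the higher side, so nothing is read from that count. The part of the cells of these compartments in the chain levels was not tested.

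*Lamc3*, which encodes a γ chain outside the 9 genes, reached no more than 0.102 FPKM in any of the 12 libraries.

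Other components of the basement membrane were fitted for 7 of 18 listed genes in crypts, with 2 higher and 5 lower in the knockout, and 15 of 18 in tumors, with 10 higher and 5 lower under each scaling. None had an adjusted p under 0.05 in limma. At an unadjusted p under 0.05 there were 0 in crypts, beside 5.85% of all genes, and 7 higher and 1 lower in tumors, beside 14.5% of all genes in either direction. The median log2 difference of the list was -0.13 in crypts, beside 0.01 over all genes, and 0.25 in tumors, beside 0.01. *Col4a2*, a chain of the collagen IV network that laminin sheets are tied to, had 72.7, 56.4 and 44.1 FPKM in APCmin/+ and 80.9, 84.1 and 87.8 in APCmin/+;ieCtnnb1KO tumors. Its groups did not overlap and the log2 difference was 0.57 (SE 0.177, limma adjusted p = 0.296). *Col18a1*, the source of endostatin, had 56.7, 27.3 and 31.2 FPKM in APCmin/+ and 62.4, 85.1 and 61.3 in APCmin/+;ieCtnnb1KO tumors (0.91, SE 0.283, limma adjusted p = 0.296), again without overlap. In crypts it was scarce, with means of 0.689 and 0.435 FPKM (-0.34, SE 0.223, limma adjusted p = 0.896). *Col18a1* reached the cut of 0.5 FPKM there through WT alone. That favours the lower side in its own difference and in the crypt count and median of the list. *Tinagl1*, a matricellular protein, had means of 4.24 ± 1.49 FPKM in WT and 3.05 ± 0.608 in ieCtnnb1KO crypts (SD, n = 3), which overlap (-0.38, SE 0.249, limma adjusted p = 0.896), and WT 3 was again the highest library. The gene with an unadjusted p under 0.05 that was lower in tumors was *Fras1*, named after its values were seen, with means of 3.24 and 1.25 FPKM (-1.19, SE 0.405, limma adjusted p = 0.308) and no overlap.

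Receptors and anchors of laminin were fitted for 12 of 14 genes in crypts (5 higher, 7 lower, median log2 difference -0.06, or 2 higher and 10 lower with quantile normalization) and 14 of 14 in tumors (11 higher, 3 lower, median 0.12). In tumors this balance depends on scaling, with 6 higher, 8 lower and a median of -0.07 under quantile normalization. None passed an adjusted p of 0.05 in limma, and 0 in crypts and 3 in tumors, all higher, had an unadjusted p under 0.05, beside the same 5.85% and 14.5%. *Plec*, the plectin that links the α6β4 integrin to keratin, had 39.2, 30.5 and 30.8 FPKM in APCmin/+ and 44.1, 48.0 and 47.3 in APCmin/+;ieCtnnb1KO tumors (0.47, SE 0.116, limma adjusted p = 0.269). *Itga3*, the α3 integrin subunit, a receptor of laminins with α3 and α5 chains, had 34.8, 32.7 and 30.0 FPKM against 40.2, 37.4 and 41.3 (0.29, SE 0.0890, limma adjusted p = 0.296). In both, every knockout tumor was above every control. *Bcam*, the Lutheran glycoprotein that binds α5, had 2.71, 2.04 and 2.97 FPKM in WT and 1.92, 2.18 and 1.58 in ieCtnnb1KO crypts (-0.36, SE 0.178, limma adjusted p = 0.860), which overlap. In tumors its level was 47.1, 46.0 and 52.6 FPKM against 45.4, 30.9 and 43.9 (-0.29, SE 0.158, limma adjusted p = 0.424), without overlap. *Rpsa*, the ribosomal protein once described as a laminin receptor, had crypt means of 358 ± 95.9 and 452 ± 89.4 FPKM (0.35, SE 0.256, limma adjusted p = 0.896).

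Enzymes that glycosylate dystroglycan, and so let it bind laminin, were fitted for 12 of 13 genes in crypts (6 higher, 6 lower, median log2 difference -0.02, or 2 higher and 10 lower with the total taken without the 50 highest genes) and 13 of 13 in tumors (5 higher, 8 lower, median -0.08). None passed an adjusted p of 0.05 in limma, and below 0.05 without adjustment there were 0 genes in crypts and 1 in tumors, again beside 5.85% and 14.5%. *B4gat1* had tumor means of 9.17 and 10.6 FPKM (0.20, SE 0.0857, limma adjusted p = 0.359). In crypts *Pomk* had means of 2.88 and 2.45 FPKM (-0.20, SE 0.135, limma adjusted p = 0.896) and *B3galnt2* of 5.45 and 4.66 (-0.21, SE 0.149, limma adjusted p = 0.896). Of these 3 genes the groups overlapped for *B3galnt2*. *Ispd*, counted among the genes lower in tumors, had means of 0.612 and 0.426 FPKM there. It reached the cut of 0.5 FPKM through the control alone, which favours the lower side in the tumor count.

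The genes whose profile was most like that of *Lama5* were sought among 11562 genes with a mean of at least 1 FPKM in both tables, by the root mean square difference of log2(FPKM + 0.5) centred within each table, over 12 libraries. The nearest was *Mylip* (0.0699), an E3 ubiquitin ligase of the LDL receptor, then *Cuedc1* (0.155), *Gm19221* (0.164), *Zfp503* (0.170) and *Nkd1* (0.171), a feedback inhibitor of Wnt signaling. For scale, the profile of *Lama5* itself departs from its table means by 0.361. *Mylip* had 2.24, 3.03 and 5.19 FPKM in WT crypts and 2.01, 1.35 and 1.96 in ieCtnnb1KO crypts. In tumors it had 13.1, 12.4 and 15.7 FPKM in APCmin/+ and 12.1, 10.9 and 10.5 in APCmin/+;ieCtnnb1KO. WT 3 was its highest crypt library too, and the genotypes did not overlap in either tissue. Both follow from choosing *Mylip* for its likeness to *Lama5*, itself chosen for being lower in both knockouts, so nothing is read from them. Among laminin genes the nearest to *Lama5* was *Lamb3*, at rank 355 (0.281), followed by *Lamc1* at rank 795 (0.311) and *Lama3* at rank 2102 (0.355).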

How the data were processed

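The authors aligned paired-end reads with HISAT2 and counted reads on genes with featureCounts, and tested them with DESeq2. The submitters' processing notes name cutadapt, HISAT2, Cufflinks 2.2.1, DESeq2 and mm10. How FPKM were computed, and whether counting used strand, is not given in the sources used here. The deposited values are FPKM per gene and library, in a table for each tissue, not pooled, with all 12 libraries assigned to groups from the labels.

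Multiplied by gene length, 100% of non-zero values fell on whole steps of the library (within 1e-04 of their size), which gave fragments and, through Poisson intervals, their 95% counting error. Each table was fitted with limma 3.58.1 (R 4.3.3) on log2(FPKM + 0.5) with a variance trend, keeping genes that average 0.5 FPKM or more, and Benjamini-Hochberg adjustment over all of them at 0.05. Differences on this scale understate changes of low genes. Genes near the cut can pass it through a single genotype, which favours that direction in counts over a list. This holds for *Col3a1*, *Col6a1* and *Col18a1* in crypts and for *Tagln* and *Ispd* in tumors. The fit was tested on simulated data. Exact permutation tests used scipy 1.17.1 in Python 3.11.15.

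The laminin genes and all gene lists were chosen with earlier results of these data known. Text names all 9 laminin genes, *Ctnnb1*, up to 2 genes per list and tissue with the smallest unadjusted p, and the 5 nearest to *Lama5*. Markers are named where most abundant on average over a table, or at 0. Listed genes are also named where they passed the filter through a single genotype. Some genes that these rules select are not reported here. *Krt20*, *Vil1*, *Gkn1*, *Pgc*, *Xist* and *Ddx3y* were named after their values were seen. So were *Krt19*, *Cldn7*, *Cdh1* and *Krt18*. Alternatives were pseudocounts of 0.1 and 1, no filter, a cut at 1 FPKM, totals made equal with or without the 50 highest genes, quantile normalization, no variance trend, the replicate number as a block, and leaving out each library. Added after seeing the data were voom on recovered fragments, ratios of group means, crypts without WT 1 and 2, and tumors without replicate 3 of both genotypes. Gene positions equal those of GENCODE M21 for all 9 genes and for 53462 of 54409 genes in both. Antisense or overlapping genes cannot be told apart from a chain where strand was not used: fragments of *Hsd11b1* and *G0s2*, opposite to *Lamb3*, came to 2.89% and 2.02% of its fragments in tumors, and those of *Gm48084* to 45.9% of the few of *Lama2* in crypts.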

Additional observations from a re-analysis of the deposited data

Results flagged for a closer look

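*Lamc1*, the γ1 chain, differed between genotypes in opposite directions in the 2 tissues. All 3 ieCtnnb1KO crypt libraries were below all 3 WT libraries, with a log2 difference of -0.25, and all 3 APCmin/+;ieCtnnb1KO tumors were above all 3 APCmin/+ tumors, with 0.17, or 0.06 with quantile normalization. No test was made of either difference. The tables were normalized separately, so the difference between the tissues was not tested, and the closest libraries of each tissue lay within counting error of each other.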

How the results depend on the processing

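Calls of genes at an adjusted p under 0.05 in limma moved little: in crypts they were between 0 and 3 over the left-out libraries, with 3 without WT 3, and in tumors 1 gene was called with no variance trend and 0 under every other setting. Whether the replicate numbers pair the samples is not given, and the correlations below cannot decide it. In tumors, replicate 3 was the *Xist* library of both genotypes. The correlations of same-numbered libraries were -0.05, -0.12 and 0.04 in crypts and 0.05, -0.09 and 0.05 in tumors, and with the number as a block 0 genes were called in either tissue, while below 0.05 without adjustment 394 rose and 338 fell in crypts, and 1160 rose and 722 fell in tumors. The epithelial minus stromal difference under the block was -0.68 in crypts and -0.04 in tumors, values that a block cannot move in a balanced design. With quantile normalization this difference was -0.68 in crypts and -0.20 in tumors. Among the laminin genes, a log2 difference moved by more than the pooled SD between replicates 5 times in crypts and 3 times in tumors, never by leaving out a single library. In crypts without both WT 1 and WT 2 it was -1.31 for *Lama5*, -1.69 for *Lama3*, -1.46 for *Lamb3* and -0.39 for *Lamc1*, with WT 3 as the only control, and voom gave -0.79 for *Lamb1*. In tumors quantile normalization gave -0.39 for *Lama5* and 0.06 for *Lamc1*, and leaving out the *Xist* libraries gave 0.14 for *Lama3*. With a cut at 1 FPKM, *Lamb1* and *Lamb2* in crypts and *Lama2* in tumors were not fitted. The cause of these moves was not tested. Of the orders of levels, *Lamb2* over *Lamb1* in crypts ran from -0.0171 to 0.216 over left-out libraries, *Lama2* over *Lama1* in crypts from -0.000967 to 0.0149, and *Lama3* over *Lamb2* in tumors from -0.0491 to 0.137. Of the 5 genes nearest to *Lama5*, 4 were the same with a pseudocount of 1. No scaling moved the median log2 difference of all genes by more than 0.1. Depth limits the crypt values most, where *Lama1*, *Lama2* and *Lama4* rest on 0 to 40 fragments.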
